A study of Mus musculus with 10 samples.

Results

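The 10 genes described here encode parts of the Notch pathway and were chosen by name: the receptor genes Notch1, Notch2 and Notch3, the ligand genes Dll1, Dll3, Jag1 and Jag2, and the target genes Hes1, Hes5 and Hey1. They are 10 of the 50559 genes counted, and all 10 were among the 29952 genes with enough counts to be tested. RNA from formalin-fixed, paraffin-embedded (FFPE) mouse tissue was sequenced to set a tumor model of medulloblastoma (MB), a malignant tumor of the cerebellum, beside an established MB model and developing cerebellum. The study asked which genes and pathways distinguish tumors driven by MYC and by loss of SMARCA4, the ATPase of a chromatin remodeling complex.

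The MYC/SMARCA4 group holds 4 tumors from immunodeficient CD1nu/nu mice, labelled 112, 96, 89 and 79 days of age for tumors 1 to 4. Granule cell precursors (GCPs), the neuron progenitors from which many MB arise, were taken from Math1-creERT2::Smarca4fl/fl pups injected with tamoxifen, transduced with a lentivirus that carries murine Myc and GFP behind a CMV promoter, and injected into the host cerebellum without sorting. Recombination is limited to cells that express Math1, the granule cell lineage, and each tumor sample is a biopsy punch that can also hold host tissue. The P7 group holds 3 whole cerebella of Math1-creERT2::Smarca4fl/fl mice aged 7 days that were given tamoxifen (0.4 mg) at postnatal day 3, so the controls carry the Smarca4 deletion in part of their granule cell lineage as well. The SHH MB group holds 3 tumors of Math1-cre::Smofl/wt mice, in which Sonic hedgehog (SHH) signaling is active in the granule cell lineage. Their label gives no treatment and an age of 7 days, the same as for the P7 cerebella, and it cannot be told from the labels whether this was the age of the tumors.

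Notch receptors sit in the cell membrane and bind Delta and Jagged ligands on neighbouring cells. Binding leads to cleavage by ADAM proteases and by γ-secretase, and the freed intracellular domain enters the nucleus, where it joins the DNA-binding protein RBPJ and a Mastermind coactivator and turns on Hes and Hey genes. These encode repressors of neuronal differentiation genes. In the developing cerebellum the pathway is known for keeping progenitors undifferentiated and for its part in Bergmann glia, and Hes1 is also known to respond to SHH in GCPs.

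RBPJ recognizes the letters GTGGGAA, and the Hes5 promoter is shown as an example of a direct Notch target. The RefSeq promoter table (GRCm38.p6) held 8 of the 10 genes. Hes1 and Hey1 were not in it, so Hes5 was the only target gene that could be scanned. Hes5 held these letters at 2 places within the 250 bases before its start, at -226 on the minus strand and at -83 on the plus strand. The capitals mark both places in the stretch that was found at chr4:155045130-155045379 (GRCm39, plus strand) by an exact match.
Hes5 promoter: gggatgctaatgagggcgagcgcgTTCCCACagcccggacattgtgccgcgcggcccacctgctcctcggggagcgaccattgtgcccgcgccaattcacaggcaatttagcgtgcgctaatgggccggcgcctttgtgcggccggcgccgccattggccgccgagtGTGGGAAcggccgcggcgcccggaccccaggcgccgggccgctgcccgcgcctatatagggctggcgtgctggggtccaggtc
Of the 32851 promoters of the table, 5.42% held GTGGGAA on either strand within the same length, and 0.161% held it 2 times or more. The other promoters found, those of Notch1, Notch2, Notch3, Dll1, Dll3, Jag1 and Jag2, held neither these letters nor CACGTG, the E-box bound by MYC, which occurs in 6.02% of promoters.

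Total counts ranged from 5663491 to 9352109 per library, so that the floor of 3 counts per library corresponds to between 0.307 and 0.744 CPM (counts scaled by the size of the library). Levels below are log2 CPM with a prior count of 2. The labels were checked by their own genes. Myc ranged from 7.25 to 10.63 log2 CPM in the MYC/SMARCA4 tumors, from 5.09 to 5.52 in SHH MB and from 3.73 to 3.87 in P7 cerebella. For Smarca4 the ranges were 7.09 to 7.93 in the tumors, 8.94 to 9.20 in SHH MB and 7.79 to 8.14 in P7 cerebella, and counts over the whole gene do not separate recombined from intact transcripts. The tumors stood further apart from each other than the libraries of the other groups: the χ2 per degree of freedom between the counts of a pair was 31.9 to 124 among them, 4.29 to 6.48 among SHH MB and 4.61 to 7.05 among P7 cerebella. Tumor 1 had the lowest Myc level, summed proliferation markers at 108 CPM against 1550 to 1780 in tumors 2 to 4, and mature granule neuron markers at 9800 CPM against 314 to 3140. Of the granule cell markers, Zic1 was at 8.82 log2 CPM on average in the tumors, 9.69 in SHH MB and 9.76 in P7 cerebella. Barhl1, named here for its change, was at 3.74 in the tumors against 8.50 in SHH MB. By fitted value against SHH MB, 6 of the 8 granule cell precursor markers were lower and 2, Zic2 and Neurod1, were higher.

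A gene passed at an adjusted p of at most 0.05 (edgeR, all libraries in 1 fit). Against SHH MB, 3 of the 10 genes passed and were lower in MYC/SMARCA4 tumors. The fitted level of Dll3, a Delta-like protein held inside the cell that does not activate receptors on neighbours, was 7.92-fold lower, that of Hes1 4.07-fold and that of Hey1 4.09-fold. For comparison, 4.68% of all tested genes passed and 2.26% were called lower. Against P7 cerebella none of the 10 genes passed (edgeR, 1 with an unadjusted p under 0.05), where 6.25% of all tested genes passed in either direction. DESeq2, limma on the deposited variance-stabilized (VST) values and limma voom called none of them either, and 13.4%, 2.43% and 7.71% of all genes these tools tested. In SHH MB against P7 cerebella, Hes1 was 4.3-fold higher and no other member passed, where 0.177% of all tested genes were called higher. In bulk tissue, fewer cells of a type and less RNA per cell cannot be told apart.

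**Figure D1:**
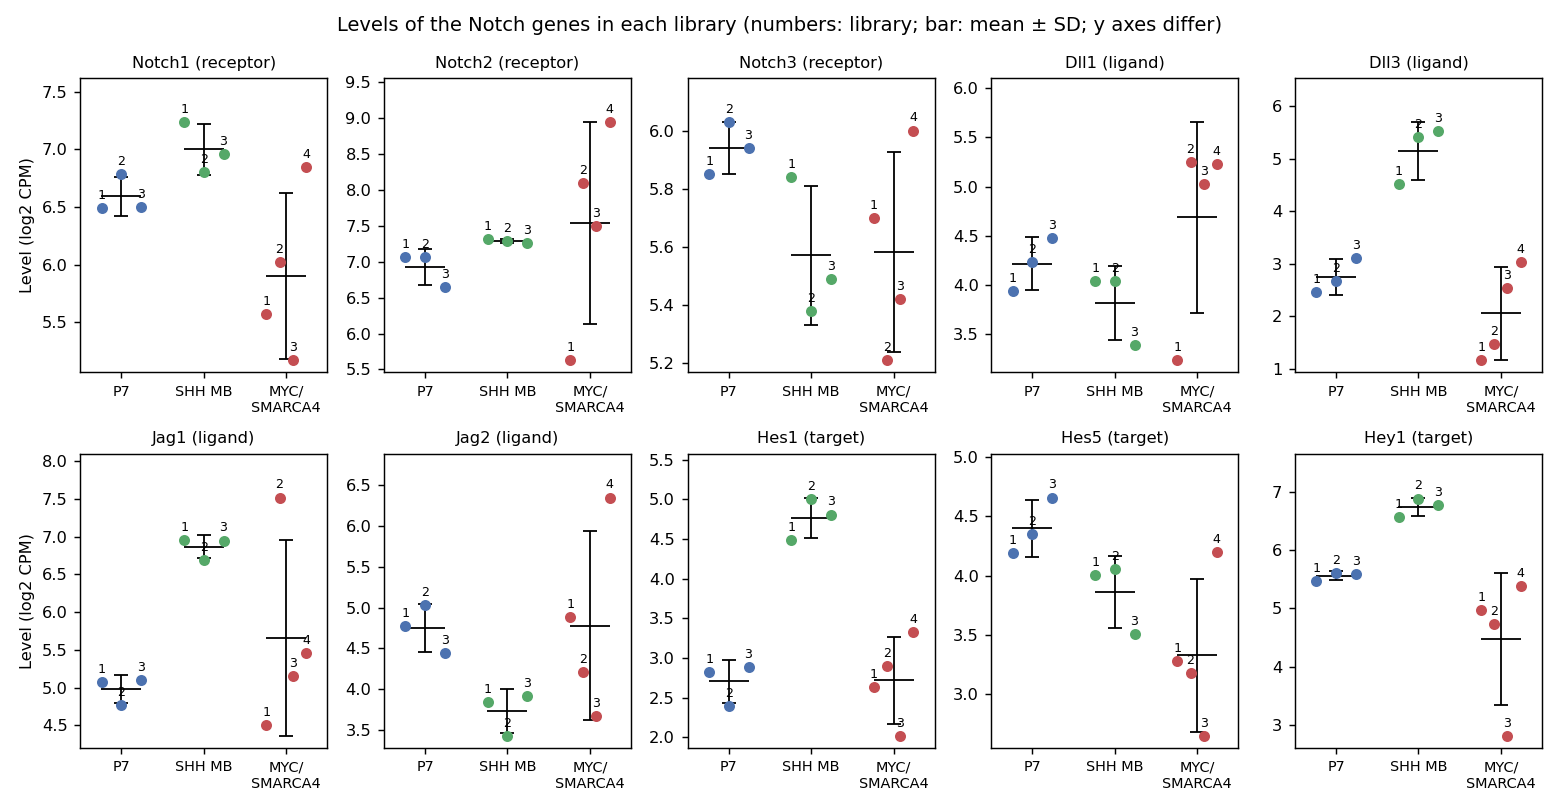
Level of each gene (y axis, log2 CPM, a separate scale per panel) in 3 P7 cerebella, 3 SHH MB and 4 MYC/SMARCA4 tumors (x axis), with the library number at each point and the mean ± SD as a bar. Dll3, Hes1 and Hey1 are lower in every MYC/SMARCA4 tumor than in every SHH MB, and the tumors are spread over 5.63 to 8.94 for Notch2.

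The receptor genes did not pass in any comparison. Notch1 (GRCm39, chromosome 2, 26347915 to 26406675), the receptor best known from T cells and neural progenitors, was at 5.57, 6.02, 5.17 and 6.85 log2 CPM in tumors 1 to 4. In SHH MB it was at 7.24, 6.80 and 6.96, and in P7 cerebella at 6.49, 6.79 and 6.50. Tumors 1, 2 and 3 lay below each control library and tumor 4 within their range, so that the groups overlapped. Its log2 fold change was -0.97 ± 0.35 (SE) against SHH MB (adjusted p = 0.145) and -0.56 ± 0.35 against P7 cerebella (adjusted p = 0.323). Over 21 alternatives the first ranged from -1.44, without tumor 4 (adjusted p = 0.0181), to -0.46, and 18 of them did not pass. The fit without tumor 4 called 2.1% of all tested genes lower than in SHH MB.

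Notch2 (chromosome 3, 97920800 to 98057677), the receptor known from GCPs, differed most among the tumors, at 5.63, 8.09, 7.50 and 8.94 log2 CPM. The controls were close together, at 7.31, 7.28 and 7.26 in SHH MB and at 7.06, 7.07 and 6.64 in P7 cerebella. Tumor 1 was below all controls and tumors 2 to 4 above them, a range of 49.1 to 491 CPM among the tumors against 153 to 158 among SHH MB. Against P7 cerebella the log2 fold change was 1.02 ± 0.54 (adjusted p = 0.246) and 0.68 ± 0.53 against SHH MB (adjusted p = 0.517). Against P7 cerebella it was 1.38 without tumor 1 (adjusted p = 0.0116) and 0.47 without tumor 4 (adjusted p = 0.623), and 19 of 21 alternatives did not pass, with values from 0.30 to 1.80. The fit without tumor 1 called 11.1% of all tested genes higher than in P7 cerebella. Tumor 1 had the lowest level of Myc and of the proliferation markers. It also had the highest sums of Purkinje cell markers (11100 CPM) and oligodendrocyte markers (3830 CPM). The part of these in its low Notch2 was not tested.

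Notch3 (chromosome 17, 32339794 to 32385893), known from pericytes and vascular smooth muscle, varied least, between 5.21 and 6.0 in the tumors, 5.38 and 5.84 in SHH MB and 5.85 and 6.03 in P7 cerebella. Its log2 fold change was 0.04 ± 0.25 against SHH MB (adjusted p = 0.956) and -0.33 ± 0.25 against P7 cerebella (adjusted p = 0.41). Of 8 markers of these vascular cells, 7 were tested and 1 was lower in each comparison with the tumors. Of all tested genes, 2.26% were lower against SHH MB and 2.27% against P7 cerebella. Their summed level was 153 to 341 CPM in the tumors, 272 to 297 in SHH MB and 183 to 204 in P7 cerebella.

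Of the ligand genes, Dll3 (chromosome 7, 27992978 to 28001673) held the largest difference. Its level was 1.17, 1.48, 2.55 and 3.04 log2 CPM in tumors 1 to 4, from 8, 14, 40 and 65 counts. SHH MB were at 4.51, 5.41 and 5.52, from 145, 358 and 321 counts, and P7 cerebella at 2.46, 2.68 and 3.12. All tumors were below all SHH MB, as for Hes1 and Hey1 and 8.3% of all tested genes, and tumors 3 and 4 lay within the range of the P7 cerebella. Against SHH MB the log2 fold change was -2.99 ± 0.45 (adjusted p = 0.00286), which also met the stricter rule of the study, a change of 2.5 or more on the log2 scale with an adjusted p up to 0.01. On the lower side, 0.477% of all tested genes met it. It passed under each of the 20 alternatives that gave a value, with adjusted p from 3.1e-08 to 0.0191. Against P7 cerebella it was -0.50 ± 0.45 (adjusted p = 0.473). SHH MB against P7 cerebella gave 2.49 ± 0.48 (adjusted p = 0.0655), with no overlap between the groups.

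Dll1 (chromosome 17, 15587276 to 15597134), an activating Delta ligand made by differentiating neurons, was at 3.24, 5.25, 5.03 and 5.23 log2 CPM in tumors 1 to 4. In SHH MB the values were 4.04, 4.04 and 3.39, and in P7 cerebella 3.94, 4.24 and 4.48. Tumors 2, 3 and 4 lay above every control library and tumor 1 below every one of them. With all tumors, the log2 fold change was 1.04 ± 0.42 against SHH MB (adjusted p = 0.186) and 0.66 ± 0.41 against P7 cerebella (adjusted p = 0.319). Without tumor 1, it was 1.32 (adjusted p = 0.0044) and 0.96 (adjusted p = 0.017). Of all tested genes, 5.91% and 11.1% were then called higher. In each comparison 19 of 21 alternatives did not pass, with values from 0.76 to 1.48 against SHH MB and from 0.41 to 1.19 against P7 cerebella. On the annotation, Fam120b overlaps this gene on the opposite strand, and reads of both cannot be told apart if strand was not used in counting, which the sources do not state. The same limit holds for Notch1, Notch2, Notch3, Jag1, Hes1, Hes5 and Hey1, and for Maml3 and Mib1 below. Each of them is also overlapped on the opposite strand.

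Jag1 (chromosome 2, 136923373 to 136958693), a Jagged ligand, was at 4.51, 7.52, 5.16 and 5.46 in the tumors. It was at 6.96, 6.69 and 6.95 in SHH MB and at 5.07, 4.77 and 5.10 in P7 cerebella. Tumor 2 exceeded all other libraries, tumors 1, 3 and 4 were below each SHH MB, and tumors 3 and 4 were slightly above the P7 cerebella. The log2 fold change against SHH MB was -0.71 ± 0.55 with all tumors (adjusted p = 0.512), and without tumor 2 it was -1.78 (adjusted p = 0.0101), the only one of 21 alternatives to pass. That fit called 1.79% of all tested genes lower than in SHH MB. Against P7 cerebella the log2 fold change of Jag1 was 1.18 ± 0.57 (adjusted p = 0.217), and 0.12 without tumor 2 (adjusted p = 0.833). Tumor 2 also had the highest sum of fibroblast and meningeal markers, 2480 CPM against 392 to 894 in the other tumors, most of it from Igf2 with up to 2180 CPM, and their part in its Jag1 level was not tested.

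Jag2 (chromosome 12, 112871421 to 112893437), the second Jagged ligand, was at 4.88, 4.21, 3.67 and 6.35 in the tumors, at 3.85, 3.43 and 3.92 in SHH MB and at 4.77, 5.03 and 4.45 in P7 cerebella. Tumor 4 was the highest library and tumor 3 lay among the SHH MB. Its log2 fold change was 1.42 ± 0.53 against SHH MB (adjusted p = 0.157) and 0.39 ± 0.51 against P7 cerebella (adjusted p = 0.627). Against SHH MB it was 1.56 without tumor 3 (adjusted p = 0.0319) and 0.48 without tumor 4 (adjusted p = 0.46), and 19 of 21 alternatives did not pass. The fit without tumor 3 called 9.57% of all tested genes higher than in SHH MB.

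Among the targets, Hes1 and Hey1 were highest in SHH MB. Hes1 (chromosome 16, 29882134 to 29886643), a repressor that keeps neural progenitors undifferentiated, was at 2.64, 2.90, 2.02 and 3.33 log2 CPM in tumors 1 to 4. It was at 4.49, 5.0 and 4.81 in SHH MB and at 2.83, 2.40 and 2.89 in P7 cerebella. Every SHH MB exceeded every other library, and the P7 cerebella lay within the range of the tumors. In CPM this is 22.2 to 31.7 in SHH MB, 3.78 to 9.76 in the tumors and 5.02 to 7.13 in P7 cerebella, from 24 to 80 counts per tumor. Against SHH MB the log2 fold change was -2.02 ± 0.33 (adjusted p = 0.00508), and it passed under each of 21 alternatives, with adjusted p from 6.71e-06 to 0.0431. Against P7 cerebella it was 0.08 ± 0.34 (adjusted p = 0.887). SHH MB exceeded P7 cerebella by 2.11 ± 0.36 (adjusted p = 0.0394), and this call was lost without any one of SHH MB 1, 2 and 3 (adjusted p = 0.116, 0.228 and 0.223) or P7 cerebella 1, 2 and 3 (0.304, 0.371 and 0.207).

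Hey1 (chromosome 3, 8726956 to 8732385), a related repressor, gave 4.97, 4.73, 2.81 and 5.38 log2 CPM in the tumors. The SHH MB were at 6.58, 6.89 and 6.78 and the P7 cerebella at 5.47, 5.61 and 5.60. Each tumor was below each P7 cerebellum, and each P7 cerebellum below each SHH MB, which made Hey1 the member with 3 separate groups. Against SHH MB the log2 fold change was -2.03 ± 0.43 (adjusted p = 0.0194). This call was lost without tumor 2 (adjusted p = 0.0512), without SHH MB 1, 2 or 3 (0.072, 0.0978 and 0.097) and in a fit of only these 2 groups (0.0719), with log2 fold changes from -2.12 to -1.95. Against P7 cerebella it was -0.83 ± 0.43 (adjusted p = 0.236). It was the only member of which all tumors lay on the same side of all P7 cerebella, and 21.0% of all tested genes did so. Without tumor 3, the difference was -0.68 (adjusted p = 0.0337), in a fit that called 22.8% of all tested genes lower. The other 20 alternatives did not pass, with values from -1.28 to -0.30.

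Hes5 (chromosome 4, 155045373 to 155046828), known from neural stem cells and glia, followed another order. Its level was 3.28, 3.18, 2.65 and 4.20 in the tumors, 4.01, 4.06 and 3.51 in SHH MB and 4.19, 4.35 and 4.66 in P7 cerebella. P7 cerebella were above each SHH MB, and tumors 1 to 3 were below each library of both other groups, while tumor 4 was level with the lowest P7 cerebellum. The log2 fold change was -0.98 ± 0.35 against P7 cerebella (adjusted p = 0.111) and -0.44 ± 0.36 against SHH MB (adjusted p = 0.532). Against P7 cerebella it was -0.94 without tumor 3 (adjusted p = 0.046) and -1.47 without tumor 4 (adjusted p = 0.0258). Of all tested genes, 22.8% and 1.55% were called lower in these fits. The change of Hes5 was also -1.28 among genes with at least 10 counts in every library (adjusted p = 0.0292), where 6.61% of all genes tested were lower. The other 18 of 21 alternatives did not pass, and the value fell to -0.47 without tumors 1 and 3 (adjusted p = 0.168).

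Hes5 did not pass against P7 cerebella, and markers of glia are given for the same comparison. Of 10 markers of astrocytes and Bergmann glia, 5 were lower in the tumors than in P7 cerebella, beside 2.27% of all tested genes. The summed level of the 10 was 1050, 2730, 525 and 2160 CPM in tumors 1 to 4. It was 2590 to 2670 in P7 cerebella and 2180 to 2540 in SHH MB. By fitted value against P7 cerebella, 8 of the 10 were lower and 2 were higher. Aqp4, the water channel of astrocytes, was at 13.3 to 220 CPM in the tumors, 238 to 342 in SHH MB and 642 to 699 in P7 cerebella. Slc1a2, the most abundant of these markers, was at 118 to 1560, 791 to 1190 and 536 to 575 CPM in the same order. Its log2 fold change against P7 cerebella was 0.62 ± 0.64 (adjusted p = 0.533). Against SHH MB, 3 of the 10 glial markers were lower and 1 was higher, beside 2.26% and 2.43% of all tested genes. Of 8 granule cell precursor markers, 3 were lower (summed level 647 to 2000 CPM against 2070 to 2570). Of 8 mature granule neuron markers, 5 were higher (314 to 9800 CPM against 404 to 504). Of 6 Purkinje cell markers, 2 were higher (338 to 11100 CPM against 351 to 614). No oligodendrocyte marker passed, and all 6 were fitted higher (85.6 to 3830 CPM against 105 to 344). Endothelial markers summed to 121 to 356 CPM in the tumors, 215 to 264 in SHH MB and 224 to 241 in P7 cerebella. No listed marker was at 0 in a whole group, and the part of these lists in the results for Dll3, Hes1, Hey1 and Hes5 was not tested.

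**Figure D2:**
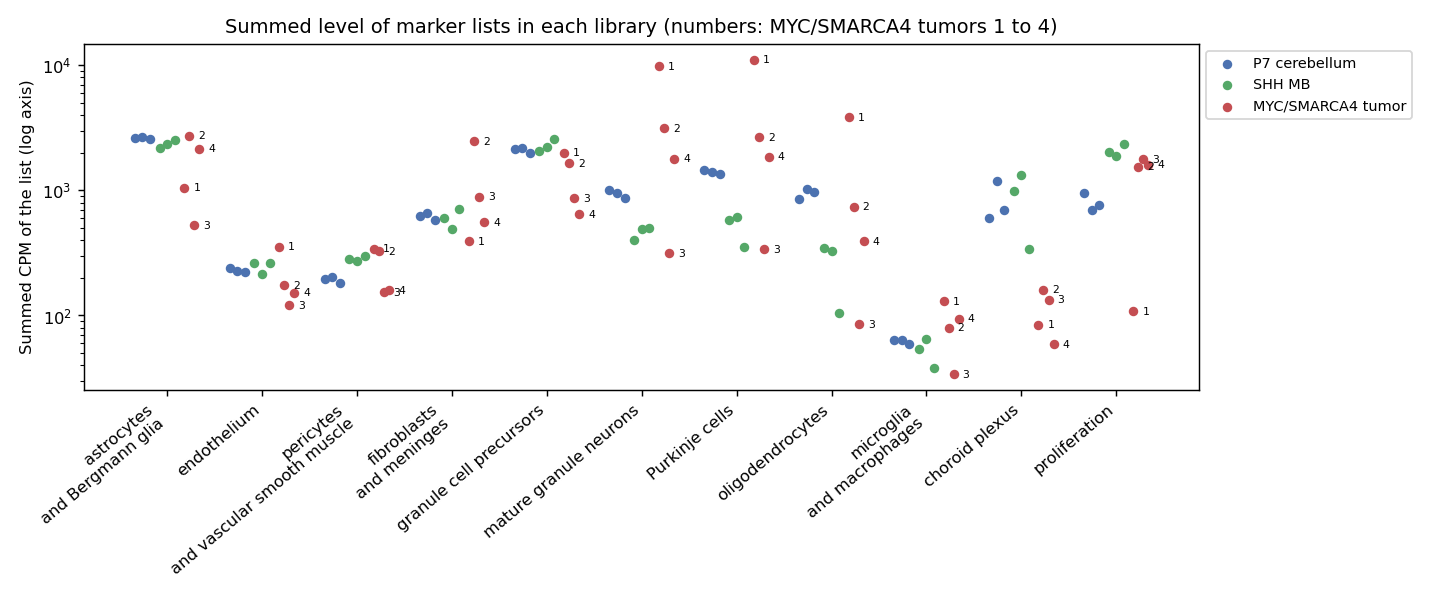
Summed CPM of each marker list (y axis, log scale) in every library, with tumors 1 to 4 numbered. Tumor 1 is highest for mature granule neurons (9800 CPM) and Purkinje cells (11100 CPM) and lowest for proliferation (108 CPM), and tumor 3 is lowest for astrocytes and Bergmann glia (525 CPM).

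The comparison of SHH MB with P7 cerebella depended on whether the tumors entered the fit. With all libraries, 67 of 29952 genes passed, among them Hes1. In a fit of only these 2 groups, 7 of the 10 members passed, where 23.7% of all tested genes did. Notch1 (log2 fold change 0.43, adjusted p = 0.0137), Notch2 (0.36, 0.0306), Dll3 (2.53, 3.02e-09), Jag1 (1.92, 1.89e-11), Hes1 and Hey1 (1.22, 1.99e-08) were higher in SHH MB, and Jag2 (-1.02, 0.000159) was lower. With limma voom and a weight per group, an alternative added after the data had been seen, 5 passed, where 16.8% of all tested genes did: Dll3, Jag1, Hes1 and Hey1 were higher and Jag2 was lower. The weights were 1.89 for P7 cerebella, 2.08 for SHH MB and 0.358 for the tumors. The levels in SHH MB and P7 cerebella did not overlap for 6 members higher and 3 lower in SHH MB, where 36.8% of all tested genes did not overlap in either direction.

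**Figure D3:**
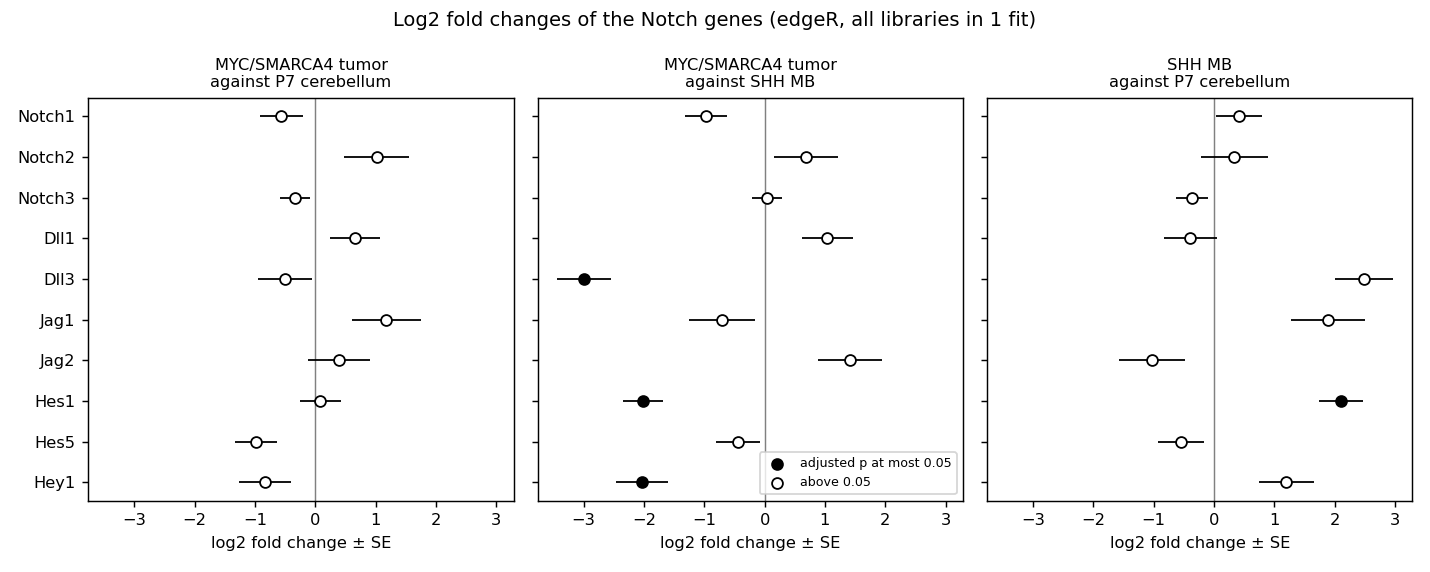
Log2 fold change of each gene (x axis) with its SE as a bar, in the fit of all libraries, for the 3 comparisons. Filled points passed (adjusted p of at most 0.05): Dll3 (-2.99), Hes1 (-2.02) and Hey1 (-2.03) against SHH MB, and Hes1 (2.11) for SHH MB against P7 cerebella.

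The comparisons share libraries, so the values of the members are set side by side only. The median log2 fold change of the 10 members was -0.58 against SHH MB, beside 0.01 for all tested genes, and -0.12 against P7 cerebella, beside -0.05. For SHH MB against P7 cerebella it was 0.38, beside -0.09. By role, the median against SHH MB was 0.04 for the 3 receptors, 0.17 for the 4 ligands and -2.02 for the 3 targets, of which Hes5 was at -0.44. Against P7 cerebella the medians of receptors, ligands and targets were -0.33, 0.52 and -0.83. For SHH MB against P7 cerebella they were 0.34, 0.75 and 1.2.

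Divided by exon length (log2 RPKM, that is CPM per kilobase of exon), the members ranked differently in each group. In MYC/SMARCA4 tumors Notch2 was the most abundant, at 4.05 ± 1.41 (SD, n = 4), followed by Jag1 at 3.09 ± 1.30 and Hes5 at 2.87 ± 0.64, and Hes1 at 0.97 ± 0.55 and Dll3 at 0.45 ± 0.88 came last. Each gap between neighbours in this order was smaller than the larger of their SDs. In SHH MB the order began with Hey1 at 4.49 ± 0.16 and Jag1 at 4.29 ± 0.16 (n = 3), and ended with Dll1 at 1.51 ± 0.37 and Jag2 at 0.91 ± 0.27. In P7 cerebella Hes5 came first at 3.94 ± 0.24, Notch2 and Hey1 followed at 3.43 ± 0.24 and 3.30 ± 0.08, and Hes1 came last at 0.95 ± 0.26. Gaps below the larger SD were those from Notch2 through Dll3, Hes5 and Notch1 to Hes1 in SHH MB, and those of Notch2 with Hey1, Notch3 with Notch1, Jag2 with Dll1 and Dll3 with Hes1 in P7 cerebella. The exon lengths are those of the GENCODE annotation and may differ from the ones reads were counted on.

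Among the tumors, the highest CPM exceeded the lowest by 1.74-fold for Notch3, 2.58-fold for Hes1, 3.00-fold for Hes5, 6.17-fold for Hey1, 6.51-fold for Jag2 and 8.12-fold for Jag1, and Notch2 had the widest range. Among SHH MB the range was from 1.04-fold for Notch2 to 2.02-fold for Dll3, and among P7 cerebella from 1.11-fold for Hey1 to 1.62-fold for Dll3. Tumor 4 was highest for Notch1, Notch2, Notch3, Dll3, Jag2, Hes1, Hes5 and Hey1, and tumor 2 for Dll1 and Jag1. Tumor 3 was lowest for Notch1, Jag2 and all 3 targets, and tumor 1 for Notch2, Dll1, Dll3 and Jag1. Without tumors 1 and 3, a setting chosen after the data had been seen, Notch2, Dll1, Jag1 and Jag2 passed as higher than in P7 cerebella. Against SHH MB, Notch2, Dll1 and Jag2 then passed as higher and Dll3, Hes1 and Hey1 as lower. Of all tested genes, 45.3% and 31.1% passed in these comparisons.

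Another 43 genes of the pathway, taken from a list by role, were all tested. Against SHH MB, 4 were lower in the tumors, beside 2.26% of all tested genes. Neurl1b, a ubiquitin ligase that acts on Notch ligands, was lower against both controls. It was at 2.45, 4.67, 3.64 and 3.80 log2 CPM in the tumors, at 6.11, 5.90 and 6.16 in SHH MB and at 5.98, 5.68 and 5.54 in P7 cerebella, so that all tumors lay below all controls. The log2 fold change was -2.24 ± 0.39 against SHH MB (adjusted p = 0.00705), called under each of 21 alternatives, and -1.92 ± 0.39 against P7 cerebella (adjusted p = 0.017), a call lost without tumor 4 (0.0535) or P7 cerebellum 1, 2 or 3 (0.0875, 0.0924 and 0.0883) and in a fit of only these 2 groups (0.0871). Maml3, a Mastermind coactivator, was at 5.14, 5.04, 3.98 and 5.69 in the tumors, 6.83, 6.92 and 7.17 in SHH MB and 6.16, 6.44 and 6.36 in P7 cerebella. Here too every tumor lay below every control. It was lower by 1.90 ± 0.33 against SHH MB (adjusted p = 0.00727), lost without SHH MB 3 (0.0555), and by 1.24 ± 0.33 against P7 cerebella (adjusted p = 0.0449), lost under 12 of 21 alternatives, among them the fits without tumor 2 (0.098), each P7 cerebellum (0.121 to 0.204) and each SHH MB (0.09 to 0.0911).

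Lfng, a glycosyltransferase that modifies Notch receptors and shifts their response between Delta and Jagged ligands, was at 4.71 to 16.3 CPM in the tumors, 32.2 to 42.4 in SHH MB and 16.1 to 21.7 in P7 cerebella. Its log2 fold change against SHH MB was -1.85 ± 0.40 (adjusted p = 0.0202), lost without SHH MB 1, 2 or 3 (0.0716, 0.109 and 0.104) and with only these 2 groups (0.0747). Heyl, another Hey gene named here after its values were seen, was at 7.14 to 12.4 CPM in the tumors, 21.0 to 23.9 in SHH MB and 9.93 to 11.9 in P7 cerebella. It was lower against SHH MB by 1.35 ± 0.28 (adjusted p = 0.0177), likewise lost without SHH MB 1, 2 or 3 (0.087, 0.0989 and 0.121) and with only these 2 groups (0.0564). Of the 7 further target and Hes/Hey family genes on the list, Heyl was the only 1 that passed against SHH MB. By fitted value, 3 of these 7 were higher in the tumors and 4 lower. As for Hes1 and Dll3, the tumors overlapped P7 cerebella in Lfng and Heyl and were below every SHH MB.

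Mib1, the main ubiquitin ligase for Notch ligands, was the only one of the 43 genes that passed as higher in the tumors. It was at 8.91, 9.68, 8.91 and 9.79 log2 CPM in the tumors, 8.88, 9.0 and 8.96 in SHH MB and 8.23, 7.98 and 7.93 in P7 cerebella. The tumors were above all P7 cerebella by 1.33 ± 0.32 (adjusted p = 0.0318), a call lost without tumor 2 or 4 (0.0683 and 0.0867), each P7 cerebellum (0.118 to 0.195) or each SHH MB (0.0717 to 0.0737) and with only these 2 groups (0.149), and overlapped SHH MB. Against P7 cerebella, Mib1 higher and Neurl1b and Maml3 lower were all that passed of the 43, beside 3.99% and 2.27% of all tested genes.

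In SHH MB against P7 cerebella none of the 43 genes passed (edgeR, 8 with an unadjusted p under 0.05, none by DESeq2 or by limma on VST values, which called 2.39% and 0.145% of all genes they tested, and 13 by limma voom, which called 16.8%). In a fit of only these 2 groups 16 were higher and 6 lower, beside 13.4% and 10.3% of all tested genes. Levels did not overlap for 17 of the 43 genes higher and 13 lower in SHH MB, where 36.8% of all tested genes did not overlap in either direction. By role, 4 of 5 further receptor and ligand genes and 5 of 8 trafficking and turnover genes were on the lower side, beside 19.0% of all tested genes. On the higher side were 4 of 5 glycosylation genes, beside 17.8%. The nuclear genes Rbpj, Maml1, Maml2, Maml3 and Spen, a corepressor, all had levels in SHH MB above every P7 cerebellum, beside 17.8% of all tested genes, with log2 fold changes of 0.47 ± 0.32 for Maml1 to 1.42 ± 0.52 for Maml2 (adjusted p = 0.441 to 0.739).

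**Figure D4:**
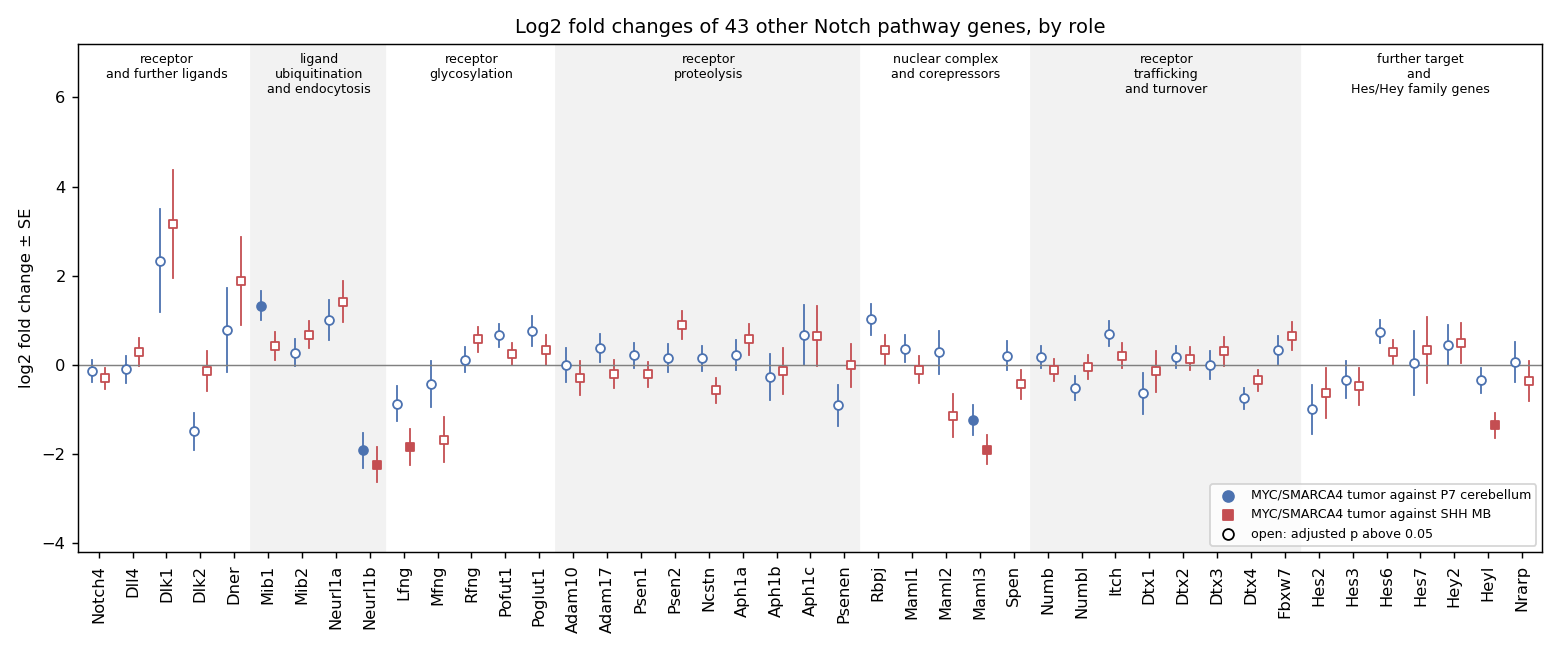
Log2 fold change (y axis) with SE of 43 other Notch pathway genes, grouped by role along the x axis, for MYC/SMARCA4 tumors against P7 cerebella (circles) and against SHH MB (squares). Filled symbols passed: Mib1, Neurl1b and Maml3 against P7 cerebella, and Neurl1b, Lfng, Maml3 and Heyl against SHH MB.

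Genes with the most similar pattern over the 10 libraries were found by the root mean square (RMS) difference of centred log2 CPM among 13225 genes. For Hes1, whose own RMS around its mean was 1.0, the nearest were Gm19653 (RMS difference 0.27) and Tle1 (0.28). For Hey1, with an RMS of 1.14, Mir100hg (0.23) and Klf3 (0.26) came first, and for Dll3, with 1.43, Mical1 (0.41). Hes5, with 0.59, was nearest to Ppdpf (0.20) and Vps37d (0.27). Among the receptors, Notch1 was nearest to Gm39260 and Brpf3 (both 0.23), Notch2 to Tmem131l (0.21) and Gm52112 (0.22), and Notch3 to Chmp6 (0.14) and Ripor2 (0.16). The nearest genes of the other ligands were Gramd2 (0.21) and H2aj (0.25) for Dll1, Gm32584 (0.45) and Tpcn1 (0.48) for Jag1, and Necab1 (0.22) and Tox2 (0.37) for Jag2. Libraries and groups are shared by all genes compared, so these values describe likeness in this set of libraries.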

How the data were processed

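RNA of 3 P7 cerebella, 4 MYC/SMARCA4 tumors and 3 SHH MB was analysed. The authors trimmed reads with Trimmomatic 0.38.1, aligned them to GRCm39 with STAR 2.7.8a and deposited raw counts per gene from featureCounts 2.0.1. The gene annotation and strand setting are not given in the sources used here. The authors also deposited values on a log2 scale from the variance-stabilizing transformation (VST) of DESeq2 2.11.40.7, used here for an alternative only, and they tested with limma. Every deposited column matched a labelled library.

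The test was the quasi-likelihood test of edgeR 4.0.16 in R 4.3.3, with all 10 libraries in 1 fit, TMM factors and filterByExpr. P-values of 29952 genes were adjusted by the Benjamini-Hochberg method. They set a difference of group means against the spread between these libraries, which was estimated over all groups in 1 fit. SE is the log2 fold change divided by the root of F. The fit was tested on simulated data with the same spread in all groups. This cannot show how it performs with the wider spread among the tumors. Alternatives were DESeq2 1.42.0, limma 3.58.1 on VST values, other factors and filters, other sets of libraries, a replicate block, and limma voom with a weight per group. Intervals and floors cover counting error only. Positions and exon lengths are from GENCODE (GRCm39).

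The members and lists were chosen with earlier results of these data known. Named beside the members were, of the other pathway genes passing in a comparison, the 4 with the largest increases and the 4 with the largest decreases, Myc and Smarca4, the most abundant markers of each list, and the 2 genes nearest in pattern to each member. Exceptions are marked. A gene of the pathway list is not reported here and was left out of the counts over that list and of the likeness results.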

Additional observations from a re-analysis of the deposited data

Results flagged for a closer look

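Dll1 in tumor 1, at 3.24 log2 CPM, stood apart from tumors 2, 3 and 4 at 5.25, 5.03 and 5.23. Its gap to the nearest tumor made up 0.889 of the range of the 4 tumors, above the critical value of Dixon's test for 4 samples. Chance alone gives such a gap in about 1 of 20 groups, and the 10 members were each looked at. The other 9 members gave no such gap. Tumor 1 also had the highest sums of mature granule neuron, Purkinje cell and oligodendrocyte markers. The part of these cells in its Dll1 level was not tested.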

How the results depend on the processing

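Among the members, 71 alternative values of called results kept their direction and their side of the threshold and 12 missed it; of the others 485 kept both, 40 passed and 19 changed sign. The cause was not tested. Of members against P7 cerebella (0 called), 1 passed with at least 10 counts in every library, 4 without tumors 1 and 3, and 0 to 2 with each library left out. Of all tested genes, 11.7%, 45.3% and 0.469% to 34.6% passed in these settings. Against SHH MB (3 called), 6 members passed without tumors 1 and 3, 1 by the stricter rule, and 2 to 4 with a library left out. Here the shares of all tested genes were 31.1%, 0.601% and 0.955% to 23.4%. In SHH MB against P7 cerebella (1 called), 2 passed by DESeq2, 2 by limma on VST values and 2 without a filter (2.39%, 0.145% and 0.179% of all tested genes). In a fit of only these 2 groups 7 passed, 4 without tumors 1 and 3 and 5 by limma voom (23.7%, 14.5% and 16.8%). By the stricter rule 0 passed, and 0 to 3 with a library left out (0.01% and 0.0% to 3.17%). Of the other pathway genes against P7 cerebella (3 called), 7 passed by DESeq2, 0 with only the 2 groups, 18 without tumors 1 and 3, 0 by the stricter rule and 0 to 9 with a library left out. The shares of all tested genes were 13.4%, 0.813%, 45.3%, 0.29% and 0.469% to 34.6%. Against SHH MB (4 called), the counts were 7 with at least 10 counts in every library, 2 with only the 2 groups, 16 without tumors 1 and 3, 0 by the stricter rule, and 1 to 10 with a library left out. Beside them, 10.8%, 1.48%, 31.1%, 0.601% and 0.955% to 23.4% of all tested genes passed. In SHH MB against P7 cerebella (0 called), the counts were 22 with only the 2 groups, 17 without tumors 1 and 3 and 13 by limma voom (23.7%, 14.5% and 16.8% of all tested genes passed), and 0 to 1 with a library left out.

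The log2 fold change changed sign against P7 cerebella for Notch1 (0.06 without tumors 1 and 3), for Jag2 (-0.56 to 0.61 with a library left out) and for Hes1 (-0.21 with at least 10 counts, -0.04 with only the 2 groups, -0.25 to 0.16 with a library left out). Against SHH MB it did so for Notch3 (-0.16 with at least 10 counts, -0.04 with only the 2 groups, -0.20 to 0.17 with a library left out) and Jag1 (0.06 without tumors 1 and 3), and none of these was called. With at least 10 counts in every library, Dll3 was not tested. With the replicate number as a block, which leaves tumor 4 without a partner, 0, 3 and 1 members passed in the 3 comparisons and 0, 5 and 0 of the other pathway genes. The block gave -0.49 for Jag2 and -0.20 for Hes1 against P7 cerebella, and -0.05 for Notch2 and -0.12 for Notch3 against SHH MB. In SHH MB against P7 cerebella, Dll3 (adjusted p = 0.0495) and not Hes1 (0.0961) passed with it. Neurl1b (0.0696), Maml3 (0.0684) and Mib1 (0.169) against P7 cerebella did not pass with the block. The numbers share no known source: deviations of same-numbered libraries correlated at -0.274 to 0.162, and not every library correlated best with its own number. Over all genes the block gave 370, 631 and 19 calls.

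All genes called in SHH MB against P7 cerebella were 67 with all libraries, 6883 in a fit of only these 2 groups, 5020 by limma voom, 457 by DESeq2, and 0 when any 1 P7 cerebellum was left out (edgeR, 1403 to 1848 with an unadjusted p under 0.05). For the tumors they were 1873 against P7 cerebella and 1403 against SHH MB, 4414 and 3062 by DESeq2, and 229 and 388 with only the 2 groups. Few counts limit Dll3 (8 to 65 per tumor), Hes1 (24 to 80) and Hes5 (38 to 148).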
